A study of Mus musculus with 36 samples.

Results

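The clustered Hox genes are the protein-coding members of the 4 mouse Hox clusters. They were taken as every row of the count table whose Ensembl identifier maps to a symbol of the form Hoxa, Hoxb, Hoxc or Hoxd followed by digits only. The rule gave 39 genes of the 49585 gene identifiers in the table: 11 in the Hoxa, 10 in the Hoxb, 9 in the Hoxc and 9 in the Hoxd cluster. Their mRNA was read by RNA sequencing of neoplastic cells that carry EGFP and were sorted out of 36 lung tumours of mice. All tumours were driven by EML4-ALK, an oncogenic fusion that carries the kinase domain of ALK. The 4 groups of 9 tumours were Variant 1 with sgNeo, the guide of the Setd2-proficient tumours, Variant 1 with sgSetd2, the guide of the Setd2-deficient tumours, Variant 3 with sgNeo and Variant 3 with sgSetd2. Setd2 encodes a methyltransferase that places the third methyl group on lysine 36 of histone H3 (H3K36). Each group has 3 title codes and each code 3 tumours, and what a code stands for is not stated. The labels give no strain, age or time after tumour initiation and do not describe how the fusion and the guides were delivered. The guides are compared within each variant and the variants within each guide.

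Hox genes encode homeodomain transcription factors that set position along the body axis of the embryo. Within a cluster the genes lie in the order of their paralogue groups, numbered 1 to 13, and the low-numbered groups are expressed further forward and earlier than the high-numbered ones. Many of the proteins bind DNA together with cofactors of the TALE homeodomain class, the Pbx, Meis and Pknox proteins. In cells that do not express them the clusters are typically held silent by Polycomb complexes, while Trithorax complexes with the Kmt2a (MLL) methyltransferase maintain active Hox genes. In the lung, Hox genes of the middle paralogue groups, Hoxa5 and Hoxb5 among them, are known mainly from the mesenchyme, and loss of Hoxa5 disturbs the development of the respiratory tract.

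The clusters occupy chromosome 6 from 52155590 to 52260880 (Hoxa), chromosome 11 from 96194316 to 96368256 (Hoxb), chromosome 15 from 102921103 to 103036852 (Hoxc) and chromosome 2 from 74668310 to 74765142 (Hoxd) in GRCm38. To show the kind of promoter these genes have, the 250 bases before the start site are printed for Hoxa5 and Hoxb4. They are the members of the RefSeq promoter table (GRCm38.p6) with the highest levels per kilobase in these tumours. The sequences read 5′ to 3′ on the gene's strand, and capitals mark CpG dinucleotides. Hoxa5 lies at chr6:52204588-52204837 on the minus strand and holds 28 CpGs in the printed bases, and Hoxb4 lies at chr11:96318017-96318266 on the plus strand and holds 14.
Hoxa5: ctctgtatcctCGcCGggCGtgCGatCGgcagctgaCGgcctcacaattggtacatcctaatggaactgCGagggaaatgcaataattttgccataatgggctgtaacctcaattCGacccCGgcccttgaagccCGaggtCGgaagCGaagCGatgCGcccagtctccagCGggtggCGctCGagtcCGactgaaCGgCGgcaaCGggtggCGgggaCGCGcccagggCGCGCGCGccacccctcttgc
Hoxb4: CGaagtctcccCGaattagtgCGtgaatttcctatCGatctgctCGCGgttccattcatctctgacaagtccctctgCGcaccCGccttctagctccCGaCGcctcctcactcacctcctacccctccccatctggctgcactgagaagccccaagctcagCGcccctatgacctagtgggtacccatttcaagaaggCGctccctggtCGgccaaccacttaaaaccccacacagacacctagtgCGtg

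That table held 24 promoters of 22 of the 39 genes, each of 300 bases from 250 before to 50 after a start site. Their median GC content was 57.7% (39.7% to 81%) with a median of 14.5 CpGs. All 32851 promoters of the table had medians of 52.7% GC and 7 CpGs. The 12549 promoters of protein-coding genes expressed in these tumours had medians of 60.7% and 20. The ratio of observed to expected CpGs had a median of 0.63 in the Hox promoters, against 0.38 in all promoters and 0.75 in those of expressed genes. The Hox promoters therefore lay between both comparison sets on these measures. The motif TGATTNAT, bound by Pbx and Hox pairs, was searched on both strands and was present in 2 of the 24 Hox promoters (8.33%) and in 3.22% of all promoters. The motif TGACAG, bound by Meis proteins, was present in 2 of 24 (8.33%) and in 19.2% of all. These counts describe letters in a window and no binding.

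The clustered Hox genes were almost without reads. Together they held 523 of 1713 M counts over the 36 tumours (M, 1000000), or 0.305 per M raw counts, without normalisation. No member reached a mean of 1 CPM (count per M, after TMM normalisation) in any group, whereas 56.9% of 21734 protein-coding genes did. The highest group mean of a member was 0.30 ± 0.52 CPM (SD, n = 3 codes), for Hoxb7 in Variant 1 sgNeo. Per kilobase of exon, 62.6% of protein-coding genes lay above the highest member (Hoxb7, 0.0567 CPM per kb), and the median protein-coding gene stood at 0.631. Of 1404 pairs of a member and a tumour, 76 had any count (5.41%), and 52 of these had 1 to 3 counts.

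Total counts ran from 17.9 M to 137.2 M in a tumour, with a median of 40.7 M, and from 91.5 M to 212.1 M in a code. A limit of 3 counts, the level that a count of 0 allows, corresponds to 0.0207 to 0.183 CPM in a tumour and to 0.00554 to 0.00957 CPM over a whole group, counting error only. The sorted cells carried the RNA of alveolar type 2 epithelium: the 10 markers of that cell type summed to group medians of 134000 to 162000 CPM, with the lowest tumour at 29800. Markers of other cell types summed to less. The 5 markers of alveolar type 1 cells summed to 1130 to 3760 CPM in a tumour. Club and ciliated markers summed to at most 848 CPM in a tumour, macrophage markers to at most 404 and smooth muscle markers to at most 125. Mesothelial markers summed to at most 41.3 CPM, endothelial markers to at most 8.93 and lymphoid markers to at most 1.32. The macrophage sum was mostly Cd14, with group means of 217 to 338 CPM. Cd68 had group means of 6.52 to 8.84 CPM, and the other macrophage markers had group means below 1 CPM. The mesothelial 41.3 CPM, in tumour 2 of CE479, was almost all Msln. Setd2 mRNA in Variant 1 was 67.7 ± 12.8 CPM with sgNeo and 37.4 ± 2.52 with sgSetd2 (edgeR adjusted p = 0.0825; exact two-sided permutation p = 0.1, the smallest that 3 against 3 codes allow). In Variant 3 it was 54.6 ± 10.3 and 45.7 ± 13.2 CPM (adjusted p = 0.647, exact permutation p = 0.4), so mRNA is a weak check of the guide there.

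No count at all was recorded for 13 members. They included the 3 genes of paralogue group 10 (Hoxa10, Hoxc10 and Hoxd10) as well as Hoxb9, Hoxb13, Hoxc6 and Hoxd9. They make up 33.3% of the members, and 14.8% of protein-coding genes had no count. A further 17 members held 1 to 9 counts over all 36 tumours, and 9 held at least 10. The members with at least 50 counts were Hoxa5 (140), Hoxb7 (106), Hoxb6 (61) and Hoxb5 (55). These 4 and the others named below with values were chosen after their values were seen, since no member reached the level set for description one by one.

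**Figure D1:**
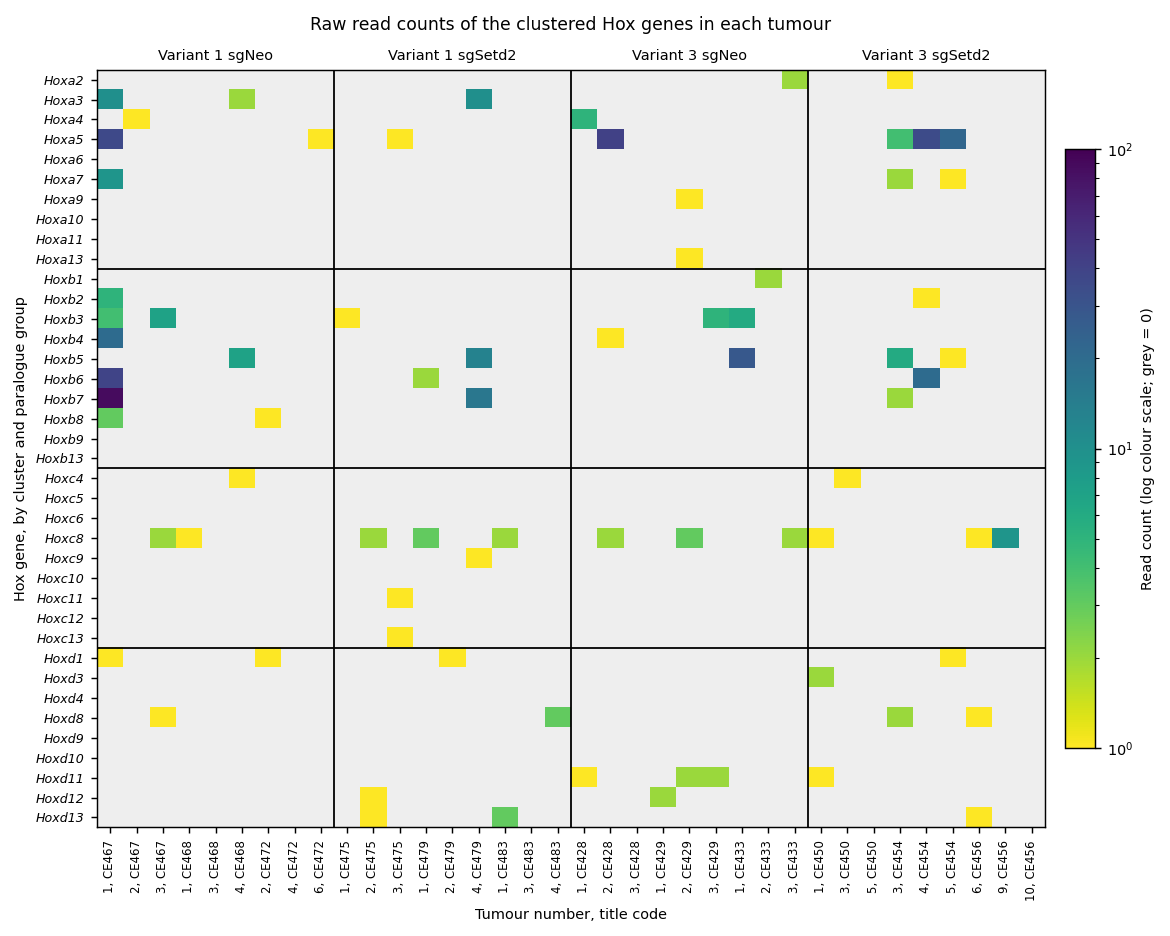
Raw read counts of clustered Hox genes (38 rows, by cluster and paralogue group) in the 36 tumours (columns, by group and title code), on a log colour scale with grey for 0. Counts of at least 10 occur in 13 cells of the map, 5 of them in tumour 1 of CE467, and rows of the high-numbered groups are nearly empty.

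Pooled over the clusters, most reads fell on the middle paralogue groups. The central paralogue groups 4 to 8 held 442 of the 523 counts (84.5%) with 11 of 15 members detected. The anterior groups 1 to 3 held 62 counts with 7 of 8 detected. The posterior groups 9 to 13 held 19 counts with 8 of 16 detected, and none of these 16 genes exceeded 3 counts in a tumour. Per kilobase of exon the central genes had 12.5 counts, the anterior genes 2.37 and the posterior genes 0.459. By cluster, Hoxb held 278 counts, Hoxa 185, Hoxc 33 and Hoxd 27. Central genes held 247 of these counts in Hoxb, 158 in Hoxa and 30 in Hoxc. Hoxd held 14 counts in posterior, 7 in central and 6 in anterior genes. Per kilobase of exon these Hoxd classes lay close together, at 1.06, 1.23 and 0.991 counts. Paralogue group 5 had the most counts (195, from Hoxa5 and Hoxb5), followed by group 7 (118, from Hoxb7 and Hoxa7), and group 10 had none.

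A single tumour held 41.1% of all Hox counts. In tumour 1 of CE467, a Variant 1 sgNeo tumour, 10 members summed to 215 counts and 4.31 CPM. They were Hoxb7 with 88 counts, Hoxb6 with 39, Hoxa5 with 36, Hoxb4 with 20, Hoxa3 with 10, Hoxa7 with 9, Hoxb2 with 5, Hoxb3 with 4, Hoxb8 with 3 and Hoxd1 with 1. It held no count of a posterior member and none of the Hoxc cluster. This tumour also had the lowest Sftpc and Nkx2-1 levels of the series: Sftpc, a surfactant gene, stood at 21100 CPM and Nkx2-1, a factor of lung epithelium, at 186, where the other 35 tumours had at least 47200 and 263. The sum of its smooth muscle markers, at 125 CPM, was the highest of the series, and 113 CPM of it was Acta2. The part of these differences in its Hox counts was not tested. Without it the central groups still held the most counts, 247, against 42 for the anterior and 19 for the posterior groups. By raw counts Hoxa came before Hoxb without it: Hoxa then held 130 counts, Hoxb 119, Hoxc 33 and Hoxd 26. These counts are not scaled for exon length, which is 30.9 kb in Hoxa and 26.3 kb in Hoxb, so they do not show a change of rank per kilobase.

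Within the Hoxb cluster the level per kilobase fell in the order of the genes from Hoxb7 (0.0567 CPM per kb) through Hoxb6 (0.022), Hoxb5 (0.0114), Hoxb4 (0.00695), Hoxb3 (0.00359) and Hoxb2 (0.00134) to Hoxb1 (0.000448). Beyond Hoxb7, Hoxb8 stood at 0.00117, and Hoxb9 and Hoxb13 had no count. This order rests on tumour 1 of CE467. In the other 35 tumours Hoxb5 had 55 counts, Hoxb6 22, Hoxb3 19, Hoxb7 18, Hoxb4 1, Hoxb2 1, Hoxb1 2 and Hoxb8 1. These are raw counts, not scaled for exon length, which is 4251 bases in Hoxb3, 2786 in Hoxb5, 1964 in Hoxb6 and 1544 in Hoxb7.

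Hoxa5 (ENSMUSG00000038253.6, chromosome 6, 52201754 to 52204587, minus strand) encodes a factor known from lung mesenchyme and was the member with most counts. It had 36 counts in tumour 1 of CE467, 41 in tumour 2 of CE428, 35 in tumour 4 and 22 in tumour 5 of CE454. The other 32 tumours held 6 counts between them, 4 of these in tumour 3 of CE454. Per code the values were 0.3685, 0 and 0.0063 CPM in CE467, CE468 and CE472 (Variant 1 sgNeo) and 0.0094, 0 and 0 in CE475, CE479 and CE483 (Variant 1 sgSetd2). They were 0.3759, 0 and 0 in CE428, CE429 and CE433 (Variant 3 sgNeo) and 0, 0.3071 and 0 in CE450, CE454 and CE456 (Variant 3 sgSetd2). In 3 of the groups 1 code was high and the other two were at or near 0, so the groups overlapped.

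Hoxb7 (chromosome 11, 96286623 to 96290162) was detected in 3 tumours. It had 88 counts (1.77 CPM) in tumour 1 of CE467, 16 (0.452 CPM) in tumour 4 of CE479 and 2 (0.0338 CPM) in tumour 3 of CE454, and no count in any Variant 3 sgNeo tumour. Hoxb6 (chromosome 11, 96292476 to 96301569) was also detected in 3 tumours, with 39 counts in tumour 1 of CE467, 20 in tumour 4 of CE454 and 2 in tumour 1 of CE479. Hoxb7 and Hoxb6 are next to each other in the cluster and shared 1 tumour of those in which they were detected.

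Hoxb5 (chromosome 11, 96303336 to 96306121), another gene known from lung mesenchyme, was detected in 5 tumours and had no count in tumour 1 of CE467. Its counts were 28 in tumour 1 of CE433, 13 in tumour 4 of CE479, 7 in tumour 4 of CE468, 6 in tumour 3 of CE454 and 1 in tumour 5 of CE454. Hoxb5 shares 3.6% of its exon bases with Hoxb5os on the opposite strand, and the annotation shows no exon overlap for Hoxa5, Hoxb4, Hoxb6 or Hoxb7.

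Hoxc8 (chromosome 15, 102990607 to 102994111) showed another distribution: 28 counts spread over 11 tumours, the most tumours of any member, and never more than 9 in 1 tumour. It was detected in every code except CE472 and CE454, at 0.0074 CPM in CE450 to 0.0481 CPM in CE456. In Variant 1 its mean was 0.00952 ± 0.0103 CPM with sgNeo and 0.0222 ± 0.00385 with sgSetd2, and in Variant 3 it was 0.015 ± 0.00303 and 0.0185 ± 0.0259. Only Hoxc8, Hoxa5 and Hoxb5 had a count in all 4 groups.

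The remaining members with 10 or more counts were Hoxb3, Hoxa3, Hoxb4 and Hoxa7. Hoxb3 had 23 counts in 5 tumours and shares 52.9% of its exon bases with the antisense gene Hoxb3os. Hoxa7 shares 20.4% with Hoxaas3, and Hoxa3 shares up to 8.4% with a gene on the opposite strand. The strand setting of the counts is not given, so reads in shared bases cannot be assigned to a strand. Hoxa3 had 22 counts in 3 tumours, 10 of them in tumour 1 of CE467 and 10 in tumour 4 of CE479. Hoxb4 had 20 of its 21 counts in tumour 1 of CE467, and Hoxa7 had 9 of its 12 counts there. Among the posterior genes Hoxd11 had 6 counts, Hoxd13 5 and Hoxd12 3. Hoxa9, a factor of blood progenitors and of leukaemias with MLL fusions, had 1 count, as did Hoxa13, Hoxc9, Hoxc11 and Hoxc13.

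By group, Variant 1 sgNeo tumours held 240 Hox counts from 15 members, Variant 1 sgSetd2 tumours 62 from 14, Variant 3 sgNeo tumours 106 from 12 and Variant 3 sgSetd2 tumours 115 from 14. Of the 26 detected members 8 had counts in 1 group, 10 in 2, 5 in 3 and 3 in all 4. The summed level of the 39 genes was 2.31, 0.0889 and 0.0189 CPM in the Variant 1 sgNeo codes (mean 0.807 ± 1.31). It was 0.0748, 0.404 and 0.0864 CPM in the Variant 1 sgSetd2 codes (0.188 ± 0.187). In Variant 3 it was 0.458, 0.0751 and 0.25 CPM in the sgNeo codes (0.261 ± 0.192) and 0.0371, 0.493 and 0.0577 in the sgSetd2 codes (0.196 ± 0.258). The codes of all 4 groups overlapped.

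The tumour medians were closer together than the means. For Variant 1 the median was 0.0297 CPM with sgNeo (0 to 4.31) and 0.0887 with sgSetd2 (0 to 1.13). For Variant 3 it was 0.0717 CPM with sgNeo (0 to 1.11) and 0.0857 with sgSetd2 (0 to 0.604). In each group 1 tumour held a large share of the counts: 89.6% in tumour 1 of CE467, 64.5% in tumour 4 of CE479, 41.5% in tumour 2 of CE428 and 48.7% in tumour 4 of CE454. Without that tumour the groups held 25, 22, 62 and 59 counts. Over the series 6 tumours had no Hox count, 23 had 1 to 10, and 7 had more than 10 and held 431 counts (82.4%).

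Fibroblast RNA varied between the tumours as well, and its values are given beside the Hox counts. All 10 fibroblast markers of the list had counts and 6 reached a mean of 1 CPM in a group. In Variant 1 they summed to 0.649 to 409 CPM with sgNeo (median 5.91) and to 1.12 to 185 with sgSetd2 (median 24.8). In Variant 3 they summed to 1.64 to 38.3 CPM with sgNeo (median 11) and to 8.83 to 107 with sgSetd2 (median 43.4). The highest value in each of the first 2 groups was in the tumour with the most Hox counts, 409 CPM in tumour 1 of CE467 and 185 CPM in tumour 4 of CE479. In the tumours of CE454 with 17, 56 and 25 Hox counts (tumours 3, 4 and 5) the list summed to 107, 84.8 and 35.9 CPM.

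Other tumours did not follow this order. Tumour 2 of CE428, with 44 Hox counts of which 41 were Hoxa5, had 5.57 CPM of fibroblast markers, below its group's median. Tumour 1 of CE433, with 34 Hox counts, had 13.2 CPM. Dcn, which encodes the matrix proteoglycan decorin, carried most of the sum in some tumours: it made up 88.2 of the 115 CPM in tumour 2 of CE479 (1 Hox count, Col1a1 at 9.79 CPM) and 74.1 of the 76.2 CPM in tumour 5 of CE450 (no Hox count, Col1a1 at 2.04 CPM). In tumour 3 of CE450 the whole sum of 43.4 CPM was Dcn. Col1a1, a fibroblast collagen gene, stood at 106 CPM in tumour 1 of CE467, 42.9 in tumour 4 of CE479 and 2.38 in tumour 2 of CE428, and at 18, 8.79 and 3.94 in tumours 3, 4 and 5 of CE454. In bulk samples fewer cells of a type and less RNA per cell cannot be told apart, and the part of fibroblast RNA in the Hox counts was not tested.

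**Figure D2:**
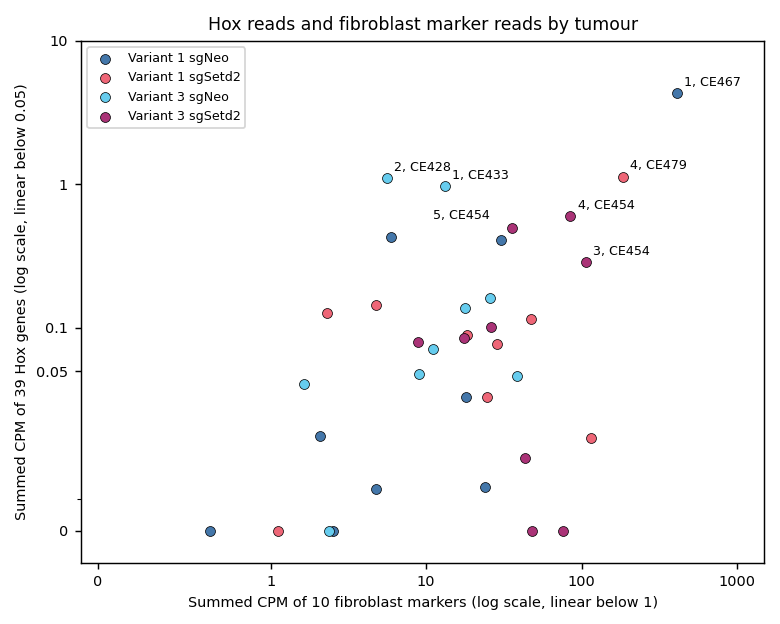
Summed CPM of the 39 Hox genes (vertical axis) against summed CPM of 10 fibroblast markers (horizontal axis) in the 36 tumours, 1 point each, coloured by group, with both axes logarithmic above the stated limits; the 7 tumours with more than 10 Hox counts carry their number and code. Tumour 1 of CE467 lies highest on both axes (409 and 4.31 CPM), while tumour 2 of CE428 reaches 1.11 CPM of Hox genes at 5.57 CPM of fibroblast markers.

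Without the 4 tumours in which Col1a1 exceeded 10 CPM, 241 Hox counts remained in 32 tumours, from 23 members. Those 4 tumours held 53.9% of the Hox counts. The groups then held 15 counts in 7 tumours of Variant 1 sgNeo, 22 in 8 of Variant 1 sgSetd2, 106 in 9 of Variant 3 sgNeo and 98 in 8 of Variant 3 sgSetd2. No member reached 1 CPM in a group with or without them.

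Loss of Setd2 brought no detectable change of a Hox gene in either variant. Only Hoxa5 passed the filter on low counts and was tested among 20009 genes, and the other 38 members had too few counts to be tested. In Variant 1 Hoxa5 had 37 counts in sgNeo and 1 in sgSetd2, a ratio of normalised counts of 30.5 with a 95% interval of 5.14 to 1240 that covers counting error only. The edgeR log2 fold change for sgSetd2 minus sgNeo was -4.95 with an SE of 3.2, and the adjusted p was 0.504. Because 36 of the 37 counts came from 1 tumour, the difference was within the spread between codes. No member was called in this contrast, against 1.42% of all genes tested. In Variant 3 Hoxa5 stood at -0.27 on that scale (SE 2.52, adjusted p = 0.977), and 1.49% of all genes tested were called. Averaged over both variants it was -2.61 (SE 2, adjusted p = 0.489), and 7.35% of genes were called.

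The variants did not differ detectably in a Hox gene either. With sgNeo, Hoxa5 had a mean of 0.125 ± 0.211 CPM in Variant 1 and 0.125 ± 0.217 CPM in Variant 3, and their difference was 0 on the log2 scale (SE 2.64, adjusted p = 1). In this contrast 0.005% of all genes were called. With sgSetd2 it had 0.00312 ± 0.0054 CPM in Variant 1 and 0.102 ± 0.177 CPM in Variant 3, where 61 counts stood against 1. That ratio was 35.3 with a 95% counting interval of 6.1 to 1420, and edgeR gave a log2 difference of 4.68 (SE 3.17, adjusted p = 0.66). All 61 counts came from the 3 tumours of CE454, and 0.13% of all genes were called. The effect of the guide did not differ detectably between the variants (interaction log2 difference 4.68, SE 3.95, adjusted p = 0.927), and 0% of genes were called. Beside these counts of 0 calls, an unadjusted p under 0.05 was reached by no Hox gene with the filter in the fit of all 12 codes. With all 26 detected members fitted without a filter it was reached by Hoxb3 in the averaged contrast, where 16.3% of all genes reached it, by Hoxb7 and Hoxb6 between variants in sgNeo (7.99% of all genes), and by Hoxa7 and Hoxb6 in the interaction (5.59%). These shares of the members lay below or near those of all genes.

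Of the genes around the clusters a share near that of all genes was expressed. Within 500 kb of the clusters the annotation places 47 other protein-coding genes, predicted genes left aside, of which 30 (63.8%) had a mean of at least 1 CPM over the 12 codes. Of all protein-coding genes 54.2% did. The predicted genes left aside near the clusters were all below 1 CPM, the highest at 0.504, so the 2 shares are not over like sets. The 30 neighbours were 3 of 4 around Hoxa, 8 of 17 around Hoxb, 17 of 23 around Hoxc and 2 of 3 around Hoxd. Hibadh, a mitochondrial enzyme gene near Hoxa, stood at 319 CPM, Nfe2l1 near Hoxb at 139, Copz1 near Hoxc at 221 and Mtx2 near Hoxd at 72.1. The homeobox genes next to the clusters did not share these levels: Evx1 had no count and Evx2 had 1. The median neighbour stood at 2.09 CPM per kb, against 0.0567 for the highest Hox gene.

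**Figure D3:**
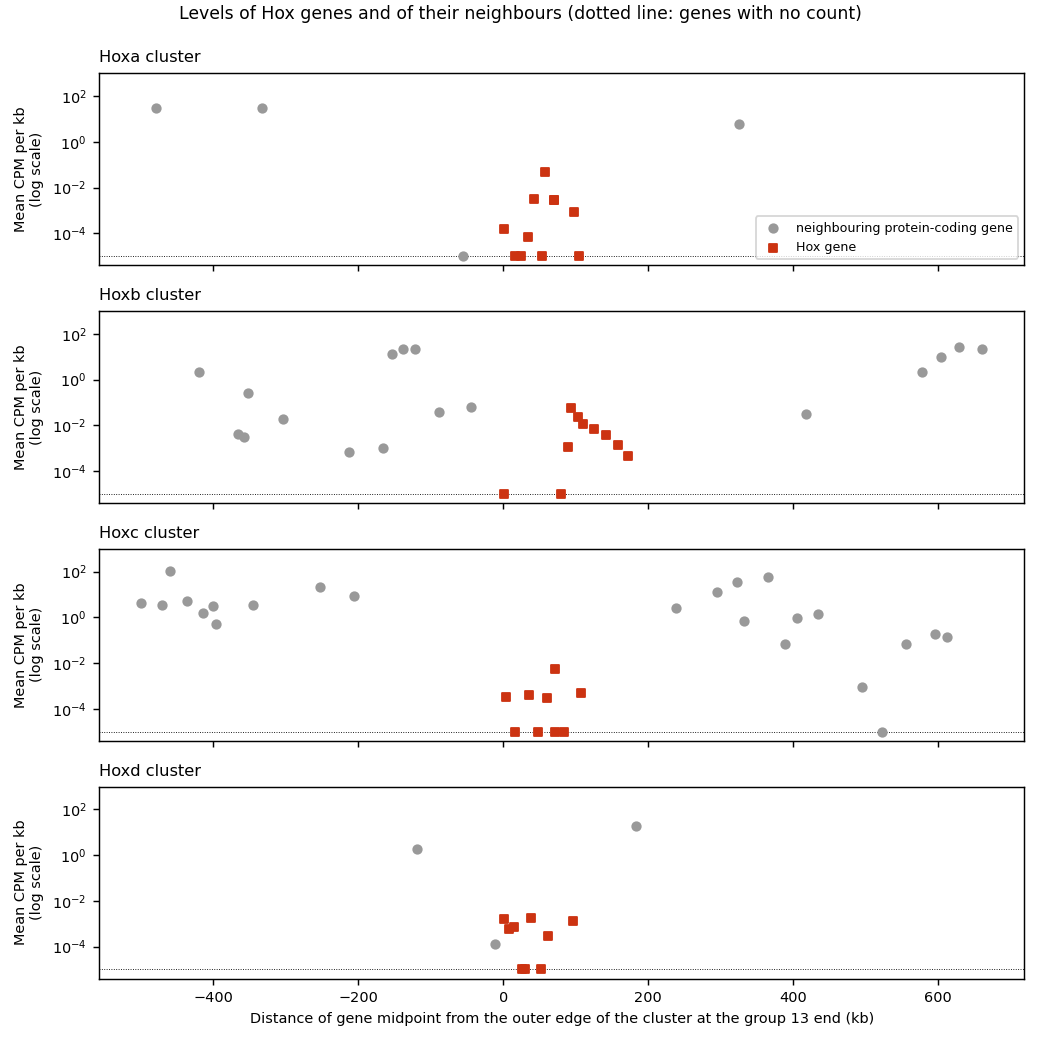
Mean level of each gene (CPM per kb of exon over the 12 codes, log axis) against the distance of its midpoint from the outer edge of the cluster at the group 13 end, for the 4 clusters; red squares are Hox genes, grey circles other protein-coding genes within 500 kb, and the dotted line holds genes with no count. The Hox genes lie at or below 0.0567 CPM per kb in each panel, and 30 of 47 neighbours have a mean of at least 1 CPM.

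The noncoding RNAs of the clusters were as low. Of 19 listed, 17 were in the table, none reached 1 CPM in a group, and 8 had no count: Hoxa11os, Haglr and the microRNA genes Mir10a, Mir10b, Mir196a-1, Mir196a-2, Mir196b and Mir615. Mature microRNAs are not captured by mRNA libraries of this kind. Summed over the list the highest tumour was at 0.17 CPM. The Cdx genes, homeobox activators of the clusters in the embryo, had no count (Cdx1, Cdx2 and Cdx4).

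The cofactors of the TALE class, unlike the Hox genes, were expressed. Of 9 genes 7 reached a mean of 1 CPM in a group, Pbx2, Pbx3, Pbx4, Meis3, Pknox1 and Pknox2 among them. Pknox1 stood at 17.3 ± 2.41 to 24.1 ± 5.16 CPM by group, Pbx2 at 16.1 ± 1.79 to 21.9 ± 1.58 and Meis3 at 16.7 ± 5.09 to 26.3 ± 2.38. Meis1 and Meis2, partners of Hox proteins in many tissues, were low: the highest group means were 0.35 ± 0.524 CPM for Meis1 and 0.0368 ± 0.0556 for Meis2. The highest code for Meis1 was CE467 at 0.952 CPM, the code that also had the most Hox counts.

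Pbx3, which encodes a cofactor that binds DNA with Hox proteins, rose in sgSetd2 tumours. Its level was 12.4, 6.88 and 15.3 CPM in the Variant 1 sgNeo codes and 33.5, 27.9 and 38.6 in the Variant 1 sgSetd2 codes. In Variant 3 it was 14.7, 15.5 and 11.6 CPM with sgNeo and 33.1, 26.9 and 33.6 with sgSetd2. All 6 sgSetd2 codes lay above all 6 sgNeo codes. Averaged over variants the log2 fold change of Pbx3 was 1.34 (SE 0.18, edgeR adjusted p = 0.00197). It was 1.53 in Variant 1 (SE 0.26, adjusted p = 0.0229) and 1.16 in Variant 3 (SE 0.26, adjusted p = 0.0521), which missed the threshold. In the same averaged contrast 3 of 5 club and ciliated markers rose, where 3.72% of all genes were called higher. The median log2 fold change was 2.13 over the list against 0.01 over all genes. Cyp2f2, a club cell enzyme, stood at 3.45 (adjusted p = 0.0004), and its call held in all 48 fits with a code or tumour left out. The calls of Scgb3a2 (adjusted p = 0.0414) and Tppp3 (adjusted p = 0.0492) were less stable. Each held in 6 of the 9 other settings, and they held in 26 and 18 of those 48 fits. Of the 10 alveolar type 2 markers Lyz2 rose (1.62, adjusted p = 0.0012) and Napsa fell (-1.29, adjusted p = 0.0022), the only 2 called. The Napsa call was lost in limma voom with code as a random block (adjusted p = 0.113). None of 5 general epithelial markers was called. Of 5 alveolar type 1 markers only Pdpn was called (0.51, edgeR adjusted p = 0.0347), a call that held in 30 of the 48 fits. The part of these marker changes in the Pbx3 change was not tested. The Variant 1 call of Pbx3 was lost with the sex of the code as a covariate (adjusted p = 0.0514) and without CE467, CE475 or CE483 or any of 4 single tumours (up to 0.214), while the averaged call held in all 9 other settings and all 48 fits with a code or tumour left out.

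No other TALE gene passed in any of the 6 contrasts. In the averaged contrast 1 of 8 tested rose, where 3.72% of all genes were called higher, and none fell, with a median log2 fold change of 0.32 against 0.01 over all genes. Pknox2 stood at 0.314 ± 0.307 CPM in Variant 1 sgNeo and 1.8 ± 0.582 in Variant 1 sgSetd2, and at 0.00208 ± 0.0036 and 0.36 ± 0.321 in Variant 3, with an adjusted p of 0.0643 in the averaged contrast.

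**Figure D4:**
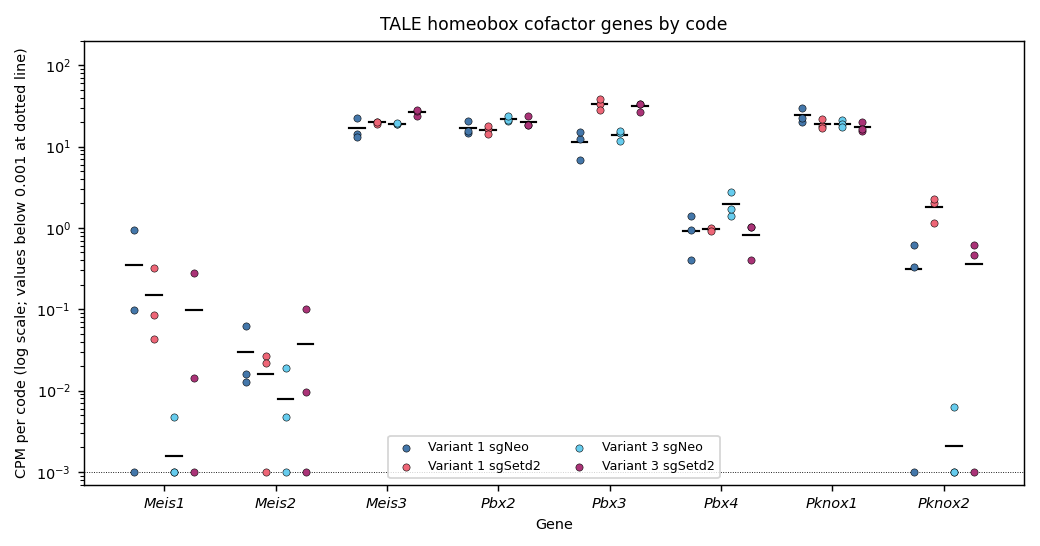
Level of 8 TALE homeobox cofactor genes in the 12 codes (CPM, log axis; points are codes, coloured by group, and bars are means of 3 codes; values below 0.001 CPM are drawn at the dotted line). Pbx3 lies at 26.9 to 38.6 CPM in the sgSetd2 codes and at 6.88 to 15.5 in the sgNeo codes, and Meis1 and Meis2 are below 1 CPM in every code.

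The chromatin regulators known to act on the Hox clusters were all expressed. All 26 Polycomb genes of the list reached 1 CPM in a group. In the averaged contrast 1 rose and 2 fell, where 3.72% of all genes were called higher and 3.63% lower, with a median log2 fold change of -0.08 against 0.01 over all genes. Cbx7, a subunit that reads the Polycomb histone mark, rose by a log2 value of 0.75 (SE 0.14, adjusted p = 0.00883), from 25 ± 5.49 to 45.6 ± 5.71 CPM in Variant 1 and from 33 ± 5.16 to 51.2 ± 7.88 in Variant 3. Bmi1, a core subunit of Polycomb repressive complex 1, fell by 0.66 (SE 0.15, adjusted p = 0.0251), from 172 ± 53.2 to 126 ± 15.6 CPM and from 155 ± 26.2 to 84.5 ± 8.89 CPM. Jarid2, an accessory subunit of Polycomb repressive complex 2, fell by 0.46 (SE 0.12, adjusted p = 0.0465), from 43.4 ± 4.97 to 32.6 ± 3.34 and from 38.7 ± 9.35 to 27.2 ± 2.68 CPM. The Jarid2 call was lost with RLE scaling and without a filter (adjusted p up to 0.0641). It held in 17 of 48 fits with a code or tumour left out, the Bmi1 call in 40 and the Cbx7 call in 47.

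Ezh2, the methyltransferase of Polycomb repressive complex 2, was at 24 ± 3.8 and 11.9 ± 1.59 CPM in Variant 1 and at 18.1 ± 7.94 and 16.4 ± 1.31 in Variant 3 (averaged adjusted p = 0.0812). No Polycomb gene passed within 1 variant or between variants. Of the 16 genes of Trithorax and MLL complexes 1 fell in the averaged contrast, where 3.63% of all genes were called lower. This was Kdm6b, a demethylase of the Polycomb mark, by 0.59 (SE 0.14, adjusted p = 0.027), from 10.7 ± 1.23 to 6.87 ± 0.647 CPM in Variant 1 and from 12.4 ± 1.42 to 8.55 ± 1.59 in Variant 3. Its call was lost without a filter and with limma on mean log2-CPM, and held in 40 of 48 fits with a code or tumour left out. Kmt2a stood at 26.3 ± 6.69 to 37.4 ± 9.85 CPM by group.

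None of the 8 genes of H3K36 methylation, 11 tested of the 17 retinoic acid and Cdx genes or 9 cluster boundary genes, Ctcf among them, passed in the averaged contrast. Of all genes tested 7.35% were called there. Setd2 itself was not on the H3K36 list and had an averaged edgeR adjusted p of 0.0501. Among 12 tested genes that flank the clusters 1 fell, against 3.63% of all genes. It was Hnrnpa1 near Hoxc, which encodes an RNA-binding protein and has near-identical copies elsewhere in the genome that may share its reads. Its log2 fold change was -0.66 in Variant 1 (SE 0.12, adjusted p = 0.0273) and -0.42 on average (SE 0.09, adjusted p = 0.0152), with 151 ± 0.635 CPM in Variant 1 sgNeo and 95.9 ± 8.56 in Variant 1 sgSetd2. The averaged call was lost with both limma fits, and the Variant 1 call with these, the sex covariate and the removal of tumours with Col1a1 above 10 CPM. With a code or tumour left out, the averaged call held in 44 of 48 fits and the Variant 1 call in 36. None of these regulators or flanking genes passed between the variants or in the interaction.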

How the data were processed

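Per the labels' protocols, PicoPure columns gave the RNA and SMART-Seq mRNA reagents the libraries, which were read in pairs on a NovaSeq. The authors deposited raw read counts per gene, 1 column per tumour. The submitters' processing notes name STAR 2.5.3a, R 4.2 and DESeq2 1.38.3. The counting tool, strand setting, build and gene annotation were not given in the sources used here. Of 49585 gene identifiers 49326 matched GENCODE mouse release 21 (GRCm38), which gave symbols, exon lengths and coordinates. Each count column belonged to a sample.

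Group labels are the submitters'. Tumours that share a title code (3 each) were treated as repeats of 1 unit, so p-values measure the spread between codes, and nothing says that these came from separate animals. Summed counts of the 12 codes entered 1 edgeR 4.0.16 fit under R 4.3.3 (groupwise filterByExpr, TMM, glmQLFit robust, glmQLFTest), for 6 contrasts, with Benjamini-Hochberg adjustment over 20009 genes at 0.05. SEs were obtained as the size of the log2 fold change over the square root of F. Levels are TMM-normalised CPM, mean ± SD over 3 codes, compared between genes only per kilobase. Intervals are exact binomial (Clopper-Pearson), from scipy 1.17.1. PCR reads without molecular identifiers are not independent molecules, so intervals and limits cover counting error only. On simulated data for the Variant 1 contrast of guides (19395 genes, 200 changed) the edgeR fit recovered 40% of 2-fold and 80% of 4-fold changes with 1 false call. The changed genes were drawn from those with a mean above 1 CPM, which no Hox gene reached in a group. These rates therefore do not cover the Hox genes.

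The rule for named genes gave members value by value where a group mean reached 1 CPM or a contrast was called, up to 4 genes of each other list by smallest p, and the promoters of the highest members per kilobase. Since no member met it, the Hox genes named with values were chosen after these were seen, as were TALE cofactors beyond 4. Results of some genes are not reported here. The members and lists were chosen with earlier results of these data known. Alternatives were RLE scaling, no filter, a filter of 1 CPM in 3 codes, DESeq2 1.42.0, edgeR on the 36 tumours, limma 3.58.1 on mean log2-CPM per code and limma voom with code as a random block, a sex covariate (male codes by Ddx3y above 50 CPM), omission of tumours with Col1a1 above 10 CPM, and omission of each code and each tumour.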

Additional observations from a re-analysis of the deposited data

Results flagged for a closer look

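In groups of 9 tumours, the summed CPM of the 39 Hox genes and the CPM of the 6 members with at least 10 counts in a tumour were checked for a tumour that stood apart, meaning a gap to the nearest tumour of more than 0.493 of the group's range. Of 28 such groups of values 19 had one. Groups in which every value was 0 have no range and could not be flagged, while a group with a count in only 1 tumour was always flagged. Chance gives about 1 in 20 for values with a normal spread, which these mostly zero values do not have. The 6 members were also chosen for a high count in a tumour, so the 19 cannot be set against that rate.

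The summed Hox level stood apart in tumour 1 of CE467 (4.31 CPM, next 0.432) and in tumour 4 of CE479 (1.13 CPM, next 0.144). In tumour 1 of CE467 this held for Hoxa3 (0.201 CPM), Hoxa5 (0.722), Hoxb4 (0.401), Hoxb6 (0.783) and Hoxb7 (1.77). In tumour 4 of CE479 it held for Hoxa3 (0.283 CPM), Hoxb5 (0.367) and Hoxb7 (0.452). In Variant 3 sgNeo it held for Hoxa5 (1.04 CPM) and Hoxb4 (0.0253, 1 count) in tumour 2 of CE428 and for Hoxb5 in tumour 1 of CE433 (0.799). In Variant 3 sgSetd2 it held for Hoxb6 in tumour 4 of CE454 (0.216 CPM) and for Hoxb5 (0.101) and Hoxb7 (0.0338, 2 counts) in tumour 3 of CE454. The others were Hoxb5 in tumour 4 of CE468 (0.286 CPM), Hoxa5 in tumour 3 of CE475 (0.0256, 1 count) and Hoxb6 in tumour 1 of CE479 (0.0462, 2 counts).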

How the results depend on the processing

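The number of Hox genes called was 0 in all 6 contrasts under each of the 9 other settings and each of the 48 fits that left out a code or tumour. Without a filter 26 members were fitted, and the lowest adjusted p was 0.247. With a code or tumour left out 0 to 5 were fitted (0 in 2 of the fits), and the lowest was 0.205. In fits without a code an unadjusted p under 0.05 was reached by Hoxa5 in the averaged contrast without CE454 (0.0374) and in the interaction without CE428 (0.0361). Hoxb7 reached it between variants in sgNeo and Hoxb6 there and in the interaction in some fits (lowest 0.0253, without CE472). DESeq2 gave no p for Hoxa5, and the filter of 1 CPM in 3 codes left no member to test. The number of members expressed was 0 at 0.5, 1 and 2 CPM, with RLE scaling, without the tumours high in Col1a1 and with any code left out.

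The fold change of Hoxa5 was not stable in direction. In Variant 3, limma on mean log2-CPM gave 0.40. Leaving out a code or tumour moved the log2 fold change between sgSetd2 and sgNeo over -7.19 to -0.05 in Variant 1, -7.11 to 6.92 in Variant 3 and -6.02 to 0.98 on average. It ran over -7.19 to 4.90 between variants in sgNeo, -2.17 to 6.93 in sgSetd2 and -2.17 to 11.88 for the interaction. The extremes came without CE475 and CE467, CE454 and CE428, CE454 and CE428, CE428 and CE467, CE454 and CE475, and CE454 and CE428. No paired analysis was possible because no code occurs in 2 groups and the tumour numbers only name tumours within a code. Of the 76 detections 52 were of 1 to 3 counts, and the limit that 3 counts set in a tumour was 0.0207 to 0.183 CPM.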
